A study of Homo sapiens with 12 samples.

Results

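The BCL2 family decides at the outer mitochondrial membrane whether a cell enters apoptosis, and 10 of its genes were followed here through the H3K4me2 peaks that lie around them: BCL2, BCL2L1, MCL1, BCL2A1, BCL2L11, BBC3, PMAIP1, BMF, BAX and BAK1. They were chosen by name among 19970 protein-coding genes of GENCODE release 44 on GRCh38, with earlier results of these data known. No cutoff on a measured value was applied. For each gene a window was taken that joins the gene body with 50 kb on either side of the start site of its canonical transcript. Overlapping or touching peaks, from any of the 4 lists, made up 1 region, and the 10 windows held 109 of the 84577 regions found in the genome. By list, the windows held 96 of 65172 peaks with DMSO, 92 of 66385 with ATRA, 104 of 73997 with Corin and 115 of 83969 with both drugs.

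The cells were U-937, an established human monocytic line that came from a histiocytic lymphoma and that is labelled here as acute myeloid leukaemia, so 1 line stands for the disease. For 24 hours they were given DMSO as vehicle, 0.1 µM ATRA (all-trans retinoic acid), 0.1 µM Corin, or 0.1 µM of each drug together. ATRA is a ligand of the retinoic acid receptors and drives myeloid cells towards differentiation. Corin is a synthetic inhibitor of the CoREST complex, in which it blocks the histone deacetylases and the demethylase LSD1, an enzyme that takes methyl groups off lysine 4 of histone H3. H3K4me2, the mark measured, is found at active and poised promoters and enhancers and is a substrate of LSD1. Each treatment had 2 H3K4me2 libraries and 1 input library, 12 libraries in all, which the authors reduced to 1 peak list per treatment. The comparisons below are therefore between lists, with no error from replicates and no p-value, and the 3 contrasts against DMSO share the DMSO list.

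Members of the family share BCL2 homology domains and act by binding each other. The guardians BCL2, BCL2L1 (BCL-xL), MCL1 and BCL2A1 (A1, BFL-1) hold the effectors BAX and BAK1 in check. The BH3-only proteins BCL2L11 (BIM), BBC3 (PUMA), PMAIP1 (NOXA) and BMF occupy the guardians' binding groove, and free BAX and BAK1 then form pores through which cytochrome c leaves the mitochondrion. In myeloid leukaemia BCL2 and MCL1 are known as survival factors and as drug targets.

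The lists differed in depth. The deposited fold and p of 2000 sampled peaks per list were solved for whole fragments and a background. The lowest background of a list, relative to that of DMSO, was taken as its depth. In H3K4me2 fragments this depth was 1.02 for ATRA, 1.10 for Corin and 1.20 for the combination. On the scale of the input it was 1.15, 1.19 and 1.13. The combination was thus the deepest in H3K4me2 fragments and Corin the deepest in input, the scale on which the deposited p values could be solved. Counts at equal depth of either kind are given below. At start sites of cell type markers, the DMSO list had a peak over 6 of 8 myeloid and monocytic genes (not MPO or RUNX1) and over 0 of 2 T cell, 0 of 2 erythroid, 0 of 2 epithelial and 0 of 1 hepatocyte genes. In the ATRA, Corin and combination lists 7, 6 and 3 of the 8 myeloid start sites lay under a peak. Of all protein-coding start sites 47.3% did with DMSO, 48.1% with ATRA, 38.0% with Corin and 38.0% with the combination. A bulk list does not tell a change in the share of marked cells from a change in the mark within each cell.

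The windows of the family held more H3K4me2 regions after treatment, most of all after the combination. Summed over the 10 genes there were 65 regions with DMSO, 74 with ATRA, 81 with Corin and 102 with both drugs. The median gene of the family had 7 regions with DMSO, 8 with ATRA, 9 with Corin and 10.5 with the combination, where the median of all protein-coding genes had 4, 4, 5 and 6. The family's windows thus held more regions than the typical gene's already in untreated cells. With the combination all 10 genes had more regions than with DMSO, and 62.2% of all protein-coding genes did. With Corin 8 of the 10 had more and 0 had fewer, beside 45.1% of all genes with more. With ATRA 5 had more, 1 had fewer and 4 had the same number, beside 33.5% of all genes with more.

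**Figure D1:**
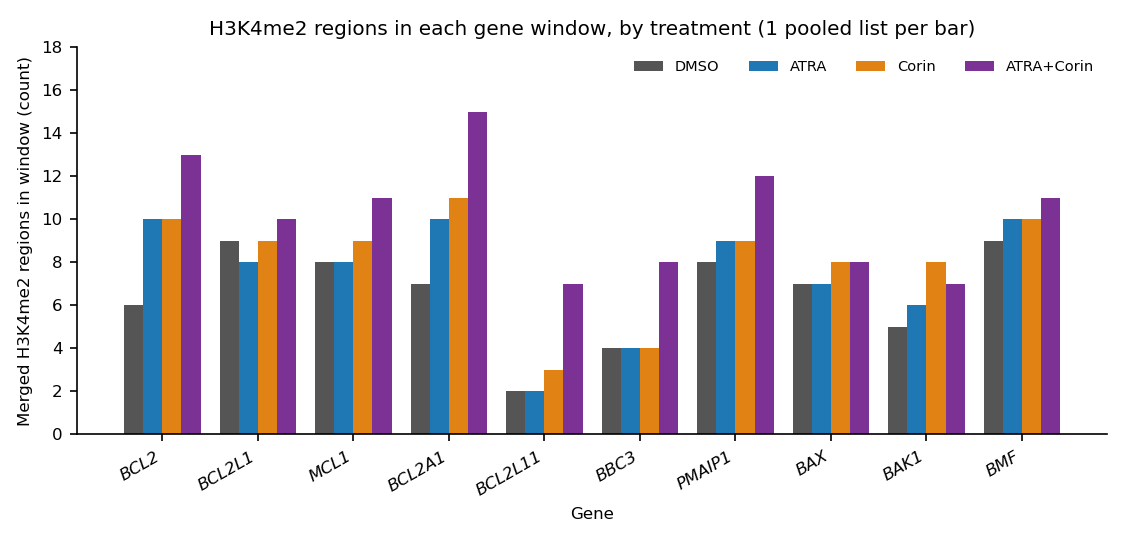
H3K4me2 regions in the window of each gene (vertical axis, count of merged regions) for the 4 treatments; each bar is 1 pooled list, so there are no error bars. The combination bar stands above the DMSO bar for all 10 genes, from 8 against 7 regions for BAX to 15 against 7 for BCL2A1.

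Gained regions are those with a peak under the treatment and none in the reference; lost regions have it the other way round. In the family's windows ATRA gained 13 regions and lost 4 relative to DMSO, Corin 17 and 1, and the combination 40 and 3. ATRA gained regions at 6 of the 10 genes, where 42.0% of all protein-coding genes had a gained region, and lost regions at 4, where 24.8% had a lost one. Corin gained regions at 8 genes against a background of 54.0%, and lost a region at 1 against a background of 25.8%. The combination gained regions at all 10 genes against a background of 67.8%, and lost regions at 3 against a background of 20.3%. Some gained regions lay close beside a region already marked with DMSO. With peaks within 1 kb merged, gains with the combination outnumbered losses at 9 genes and equalled them at 1. The family's shares of genes with a gain lay above the background in these 3 contrasts, for ATRA by less than 2 of the 10 genes. How far its richer windows, which offer more places for a peak, enter into this was not tested. The share of the window under peaks gives the same order: the median of the family was 14.5% with DMSO, 16.0% with ATRA, 17.2% with Corin and 19.0% with both drugs, beside 4.96%, 5.63%, 6.37% and 7.13% for all protein-coding genes. This share exceeded that with DMSO in 9 of 10 genes with ATRA, in 10 with Corin and in 10 with the combination, where 69.2%, 80.3% and 83.7% of all genes had a larger share, so a larger covered share was also the common case in the genome.

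**Figure D2:**
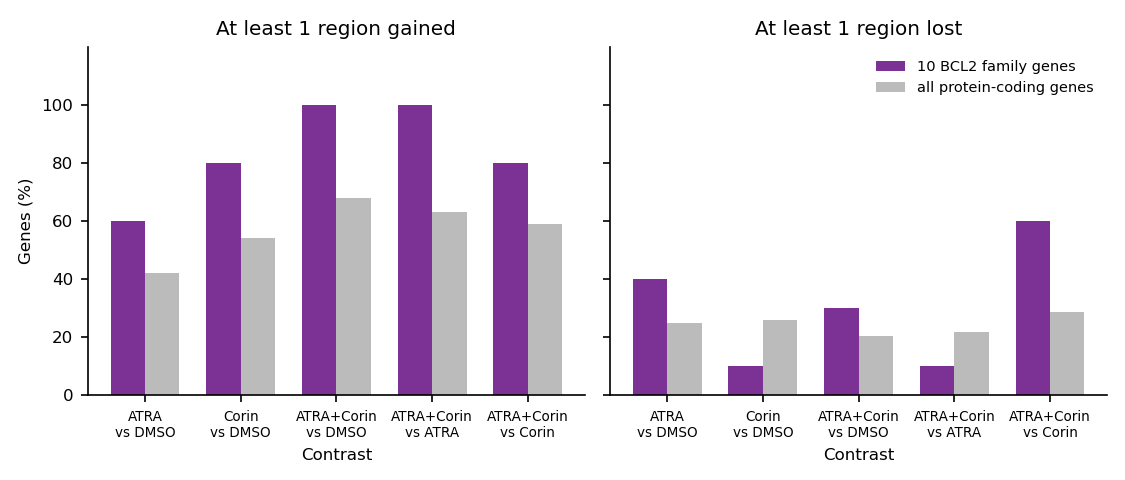
Percent of genes (vertical axis) with at least 1 gained region (left) and at least 1 lost region (right) in each of 5 contrasts, for the 10 family genes and for all 19970 protein-coding genes. Gains lie above the background in all 5 contrasts; losses lie above it in 3 contrasts and below it for Corin against DMSO (1 gene, 25.8% of all genes) and for the combination against ATRA (1 gene, 21.6%).

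Most of the gained regions lay in introns or outside the genes. With DMSO peaks already on 9 of the 10 start sites and 17 bases from the other, the definition of a gained region left almost no room for one over a start site. Of the 40 regions gained with the combination, 3 overlapped a member's exon, 14 lay in introns, 13 upstream and 10 downstream of the gene, and 0 came within 1 kb of any protein-coding start site, as 1.43% of the 27150 regions gained genome-wide did. For 34 of the 40 the nearest protein-coding start site was the member's own. Their summits held 14 to 86 fragments with a median of 27, and 21 of the 40 had a deposited −log10 q of at least 5. Many were thus weak peaks. Apart from the share within 1 kb of a start site, these placements and strengths were not counted over all gained regions. They are therefore not read as traits of the family. With summit fragments and background scaled to the lowest H3K4me2 depth and a −log10 p of at least 5, the combination gained 34 regions and lost 3 relative to DMSO, ATRA 14 and 4, and Corin 15 and 4. Scaled instead to the lowest input depth, which leaves the combination with more H3K4me2 fragments than the single drugs, these counts were 29 and 2, 15 and 3, and 11 and 6. The combination had the most gains at either scaling, and Corin had more losses than in the deposited lists.

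Sorted by the lists that hold them, 59 of the 109 regions (54.1%) had a peak in all 4 lists, where 51.2% of all regions did. The next group was held by the combination list alone, with 21 regions (19.3%, beside 16.3% of all regions). A further 7 regions were in all 3 drug lists (6.42%, beside 4.90%), 6 in the ATRA and combination lists (5.50%, beside 3.59%) and 6 in the Corin and combination lists (5.50%, beside 7.31%). Corin alone held 4 regions (3.67%, beside 4.76% of all regions). DMSO alone and ATRA alone held 0, beside 2.2% and 2.9% of all regions. The family's regions were thus spread over these patterns in shares close to those of the genome.

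BCL2, the founding guardian and the target of venetoclax, spans chr18:63123346-63320128 on the minus strand and is the longest gene of the family. Its window held 6 regions with DMSO, 10 with ATRA, 10 with Corin and 13 with both drugs, and all 3 treated lists lay above DMSO. The covered share was 5.29%, 6.55%, 7.94% and 8.16% in the same order. All 7 regions gained with the combination were in introns. The one with the highest −log10 q lay 47.4 kb into the gene at chr18:63271567-63272331, was found with the combination alone, and had a −log10 q of 14.7 and 41 fragments at its summit (95% exact Poisson interval 29.4 to 55.6, which covers counting error only). A second region of the combination alone lay 52.5 kb into the gene. Nearer to the start site, regions at 15.8 kb and 19.3 kb were in all 3 drug lists and a region at 17.3 kb in those of ATRA and the combination. Regions farther in, at 73.4 kb and 189.2 kb, were likewise in the ATRA and combination lists, whereas regions at 157.4 kb and 176.7 kb were found with Corin alone. The 2 regions of Corin alone were weak, with a −log10 q of 4.29 and 1.53 and 21 and 15 fragments. BCL2 thus had intronic regions of Corin alone and of the combination alone. Every region that ATRA gained here was also in the combination list. The region at 140.3 kb was in the DMSO, Corin and combination lists, which made it the 1 region that ATRA lost.

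**Figure D3:**
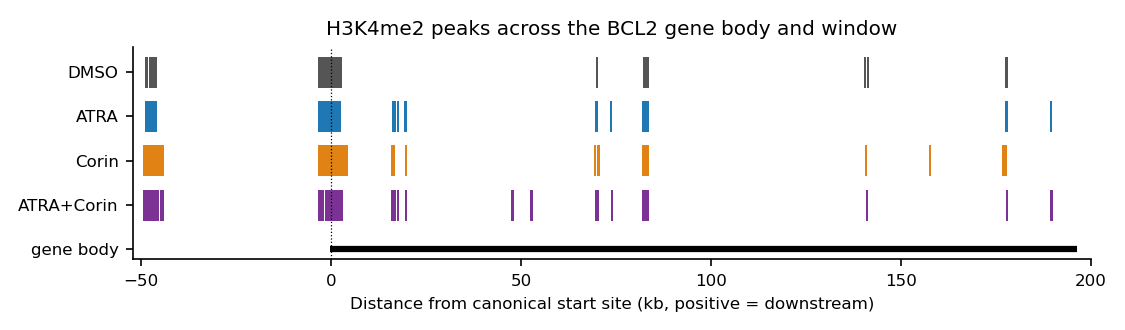
Peaks of the 4 lists across the BCL2 window (horizontal axis, kb from the canonical start site, positive downstream); the black bar is the gene body. The combination track shows the intronic regions at 47.4 kb and 52.5 kb that the other tracks lack, and the Corin track those at 157.4 kb and 176.7 kb.

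The 101 bases around the summit of the 47.4 kb region, and the same window for BCL2A1, BCL2L11 and BBC3 further on, are printed as examples of regions gained with the combination. Each comes from the region with the highest −log10 q among those gained with the combination whose window holds no exon, is read from the plus strand of hg38 (GRCh38) and is written in lower case, with any match to a searched motif in capitals. The 4 motifs, on both strands, were the nuclear receptor half-site AGGTCA, the AP-1 motif TGANTCA, the C/EBP motif TTNNGCAA and the PU.1 motif GAGGAAGT. They occur in 7.62%, 2.55%, 4.52% and 0.578% of the 83969 windows of the combination list, and 14.6% hold at least 1. Of the 10 windows of the family, 1 per gene, 1 held a match. The BCL2 window, chr18:63271811-63271911, held none.
BCL2: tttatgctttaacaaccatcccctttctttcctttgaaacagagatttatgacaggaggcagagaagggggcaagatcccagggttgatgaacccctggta

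BCL2L1 encodes BCL-xL, a guardian on which platelets and erythroid cells depend, and spans chr20:31664452-31723989 on the minus strand. Its window held 9 regions with DMSO, 8 with ATRA, 9 with Corin and 10 with both drugs, so the 4 lists were close to each other. In the same order peaks covered 14.9%, 16.8%, 17.5% and 18.4%. The combination gained an intronic region 23.6 kb into the gene at chr20:31699092-31699293, with a −log10 q of 5.32 and 39 fragments, and a weaker one 22.5 kb upstream, nearer to the start site of TPX2. It lost an intronic region at 37.5 kb, chr20:31684859-31685363, held by the DMSO list (−log10 q 3.69) and by that of Corin.

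MCL1, a guardian with a short-lived protein on which myeloid cells rely, spans chr1:150560895-150579738 on the minus strand. Its window held 8 regions with DMSO, 8 with ATRA, 9 with Corin and 11 with both drugs, so the combination stood above the other lists. The covered share was 18.0%, 20.5%, 22.9% and 25.1%. The strongest of the 4 gained regions lay 1.4 kb upstream of the start site at chr1:150581020-150581642, with a −log10 q of 15.1 and 45 fragments under the combination, and was shared with Corin. Regions 2.9 kb upstream, and 4.5 kb and 10.5 kb downstream of the start site, were found with the combination alone. The lost region, chr1:150629309-150629556, lay 49.7 kb upstream and within 1 kb of the start site of ENSA, and was in the 3 other lists.

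BCL2A1, a guardian expressed in blood cells and known as a target of NF-κB, spans chr15:79960892-79971196 on the minus strand. Its window held 7 regions with DMSO, 10 with ATRA, 11 with Corin and 15 with both drugs, the most in the family, and each treated list lay above DMSO. Of the window, peaks covered 19.0%, 22.4%, 25.1% and 31.8%, a range of 12.8 percentage points, the widest of the 10 genes. The combination gained 8 regions and lost 0. The strongest, chr15:79960193-79961323, overlapped the 3′ end of the gene 9.9 kb from the start site, had a −log10 q of 17.1 and 54 fragments, and was also in the Corin list. Upstream of the gene, regions at 9.8 kb and 21.9 kb were found with the combination alone and a region at 15.6 kb was in all 3 drug lists. The region 18.2 kb downstream of the start site was in the ATRA and combination lists and the one 40.0 kb upstream in the Corin and combination lists, so the combination list joined regions of both single drugs with some of its own. The 101 bases at the summit of the region at the 3′ end, chr15:79960704-79960804, which hold no exon, had the 1 motif match of the family's windows, to the C/EBP letters in capitals.
BCL2A1 3′ region: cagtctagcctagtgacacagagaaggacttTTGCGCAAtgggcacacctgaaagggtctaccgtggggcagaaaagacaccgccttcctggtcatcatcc

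The canonical start site of BCL2A1 lay under a peak in all 4 lists. With DMSO, ATRA and Corin that peak began more than 1 kb upstream of it, whereas with the combination it began 22 bases upstream and the next peak ended 126 bases upstream, which left a gap inside the promoter. How many of all genes had such a gap was not counted. The promoter sequence, chr15:79971197-79971446 on the minus strand (RefSeq, GRCh38.p14), is printed with the 147 of 250 bases that lay under combination peaks in capitals. It holds the PU.1 letters GAGGAAGT 179 to 172 bases before the start, as do 2.17% of the 35116 promoters of the table on either strand. The other 7 members whose RefSeq start equals the canonical one had no match to that motif or to the other 3, which occur in 12.1% (AGGTCA), 6.57% (TGANTCA) and 9.05% (TTNNGCAA) of promoters.
BCL2A1 promoter: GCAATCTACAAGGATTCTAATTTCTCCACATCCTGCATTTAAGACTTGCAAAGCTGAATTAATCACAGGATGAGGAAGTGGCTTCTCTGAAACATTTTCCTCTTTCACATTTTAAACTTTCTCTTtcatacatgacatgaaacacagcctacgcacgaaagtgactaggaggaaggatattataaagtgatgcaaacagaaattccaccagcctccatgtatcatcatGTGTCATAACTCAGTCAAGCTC

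BCL2L11 encodes BIM, a BH3-only protein that can bind every guardian and that is known to be controlled by growth factor withdrawal, and spans chr2:111119378-111168444 on the plus strand. Its window held 2 regions with DMSO, 2 with ATRA, 3 with Corin and 7 with both drugs. The single drugs thus stayed within 1 region of DMSO, and the combination list, the deepest in H3K4me2 fragments, held the most. The covered share was 4.56%, 4.09%, 5.08% and 6.21%, the lowest level of the family, and with ATRA below DMSO. Of the 5 regions gained with the combination, the strongest, chr2:111123746-111124118, lay 2.8 kb downstream of the start site, had a −log10 q of 10.9 and 39 fragments, and was in all 3 drug lists. It began 2832 bases downstream, close to the start-site region of all 4 lists, which ended at 2687 bases. The other 4 were found with the combination alone, at 4.7 kb, 5.1 kb and 7.4 kb in the first part of the gene and 34.9 kb upstream in an intron of ACOXL. The −log10 q of these 4 ran from 1.51 to 5.81. Those at 5.1 kb and 7.4 kb had a −log10 p of 3.04 and 3.50, below the minimum of 5 used at equal depth. The region 14.4 kb into the gene was in every list but that of ATRA. The 101 bases at the summit of the upstream region, chr2:111085577-111085677, held none of the motifs.
BCL2L11 upstream: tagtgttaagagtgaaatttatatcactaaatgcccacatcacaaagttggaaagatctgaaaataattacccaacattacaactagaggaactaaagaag

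BBC3 encodes PUMA, a BH3-only protein and a direct target of p53, and spans chr19:47220822-47232766 on the minus strand. Its window held 4 regions with DMSO, 4 with ATRA, 4 with Corin and 8 with both drugs. Neither single drug gained or lost a region here, and the combination gained 4 that no other list held. Coverage of the window was 14.2%, 15.2%, 16.0% and 16.8%. The strongest of the 4, chr19:47247247-47247560, lay 16.0 kb upstream and nearer to the start site of CCDC9, with a −log10 q of 11.2 and 40 fragments. The others lay 20.0 kb, 20.4 kb and 40.1 kb downstream of the start site, the last 2 within the gene SAE1, with a −log10 q of 6.31, 4.62 and 1.36. The 101 bases at the summit of the upstream region, chr19:47247387-47247487, held none of the motifs.
BBC3 upstream: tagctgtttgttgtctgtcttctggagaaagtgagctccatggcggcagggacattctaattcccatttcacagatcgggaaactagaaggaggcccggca

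PMAIP1 encodes NOXA, a BH3-only protein that binds MCL1 and BCL2A1, and spans chr18:59899996-59904305 on the plus strand. Its window held 8 regions with DMSO, 9 with ATRA, 9 with Corin and 12 with both drugs. The covered share was 11.0%, 14.1%, 17.0% and 20.4%, so the combination covered the largest part. The 4 regions gained with the combination were weak, with a −log10 q of 1.34 to 3.23. The strongest of them, chr18:59911170-59911595, lay 11.2 kb downstream of the start site and was in all 3 drug lists. The others were found with the combination alone, 34.4 kb and 5.6 kb upstream and 11.8 kb downstream of the start site.

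BMF, a BH3-only protein held at the cytoskeleton in healthy cells, spans chr15:40087890-40108892 on the minus strand. Its window held 9 regions with DMSO, 10 with ATRA, 10 with Corin and 11 with both drugs. Coverage was 18.0%, 21.5%, 22.1% and 26.7%. Each treated list thus had 1 or 2 regions more than DMSO. The intronic region 12.8 kb into the gene, chr15:40094984-40096048, was in all 3 drug lists, with a −log10 q of 9.23 and 36 fragments in that of the combination. A region 49.3 kb downstream of the start site was in the Corin and combination lists, where Corin gave it a −log10 q of 48.6, the highest among the family's regions gained with Corin. The combination lost a weak region at 24.8 kb, chr15:40083672-40084034, to which DMSO gave a −log10 q of 1.59 and which the Corin list held too. A region 48.9 kb upstream was in every list but that of Corin.

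At the start site of BMF the peaks parted in the Corin and combination lists. With DMSO and ATRA the peak ran without a break from at least 911 bases upstream. With Corin it began 53 bases upstream and the next peak ended 189 bases upstream; with the combination these positions were 19 and 202 bases. Of the 250 promoter bases, chr15:40108880-40109129 on the minus strand (RefSeq, GRCh38.p14), 115 lay under a peak with Corin and 68 with the combination, the latter in capitals here.
BMF promoter: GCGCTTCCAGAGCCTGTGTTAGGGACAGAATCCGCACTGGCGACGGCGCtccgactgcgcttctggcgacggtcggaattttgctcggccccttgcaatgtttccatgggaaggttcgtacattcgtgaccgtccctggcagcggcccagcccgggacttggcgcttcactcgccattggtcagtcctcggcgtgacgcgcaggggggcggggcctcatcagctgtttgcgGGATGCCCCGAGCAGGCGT

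BAX, the effector that moves from the cytosol to mitochondria, spans chr19:48954815-48961798 on the plus strand. Its window held 7 regions with DMSO, 7 with ATRA, 8 with Corin and 8 with both drugs, and so varied least in the family. The covered share was 16.8%, 17.2%, 19.2% and 19.6%. The single gained region, chr19:48956898-48957304, lay in an intron 2.0 kb from the start site and was in the Corin and combination lists, with a −log10 q of 2.49 and 5.28. It began 2023 bases downstream, close to the start-site region of all 4 lists, which ended at 1911 bases. The window holds 4 other protein-coding start sites, the most of the 10 genes.

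BAK1, the effector that resides in the mitochondrial membrane, spans chr6:33572547-33580293 on the minus strand. Its window held 5 regions with DMSO, 6 with ATRA, 8 with Corin and 7 with both drugs. It was the 1 gene with more regions under Corin than under the combination. Peaks took up 11.5%, 14.3%, 16.7% and 18.1%, in which the combination was highest. A region 23.7 kb upstream, chr6:33603960-33606143, was in all 3 drug lists and had the highest −log10 q of the family's regions gained with the combination, 37.7, with 86 fragments (95% exact Poisson interval 68.8 to 106). It lay nearer to the start site of ITPR3. A region 16.6 kb upstream was in the Corin and combination lists and one 9.7 kb upstream in the Corin list alone.

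The start site of BAK1 lay under a peak in the DMSO, ATRA and combination lists, and in a gap of the Corin list that ran from 24 bases upstream to 89 bases downstream. The promoter, chr6:33580277-33580526 on the minus strand (RefSeq, GRCh38.p14), is printed with the 227 of 250 bases under a Corin peak in capitals, which leaves the bases next to the start in lower case. Apart from BAK1 with Corin, BMF with Corin and with the combination, and BCL2A1 with the combination, all 250 bases lay under a peak in each list for the 8 members whose promoter was read. The share of all promoters with such gaps was not counted, so the gaps are not read as particular to these genes.
BAK1 promoter: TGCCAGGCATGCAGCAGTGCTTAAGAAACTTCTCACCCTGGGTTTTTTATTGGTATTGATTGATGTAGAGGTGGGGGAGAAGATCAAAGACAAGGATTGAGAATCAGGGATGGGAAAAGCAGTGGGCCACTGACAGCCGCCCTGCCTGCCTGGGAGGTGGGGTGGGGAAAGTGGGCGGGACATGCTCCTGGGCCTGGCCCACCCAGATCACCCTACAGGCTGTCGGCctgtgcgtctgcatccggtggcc

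**Figure D4:**
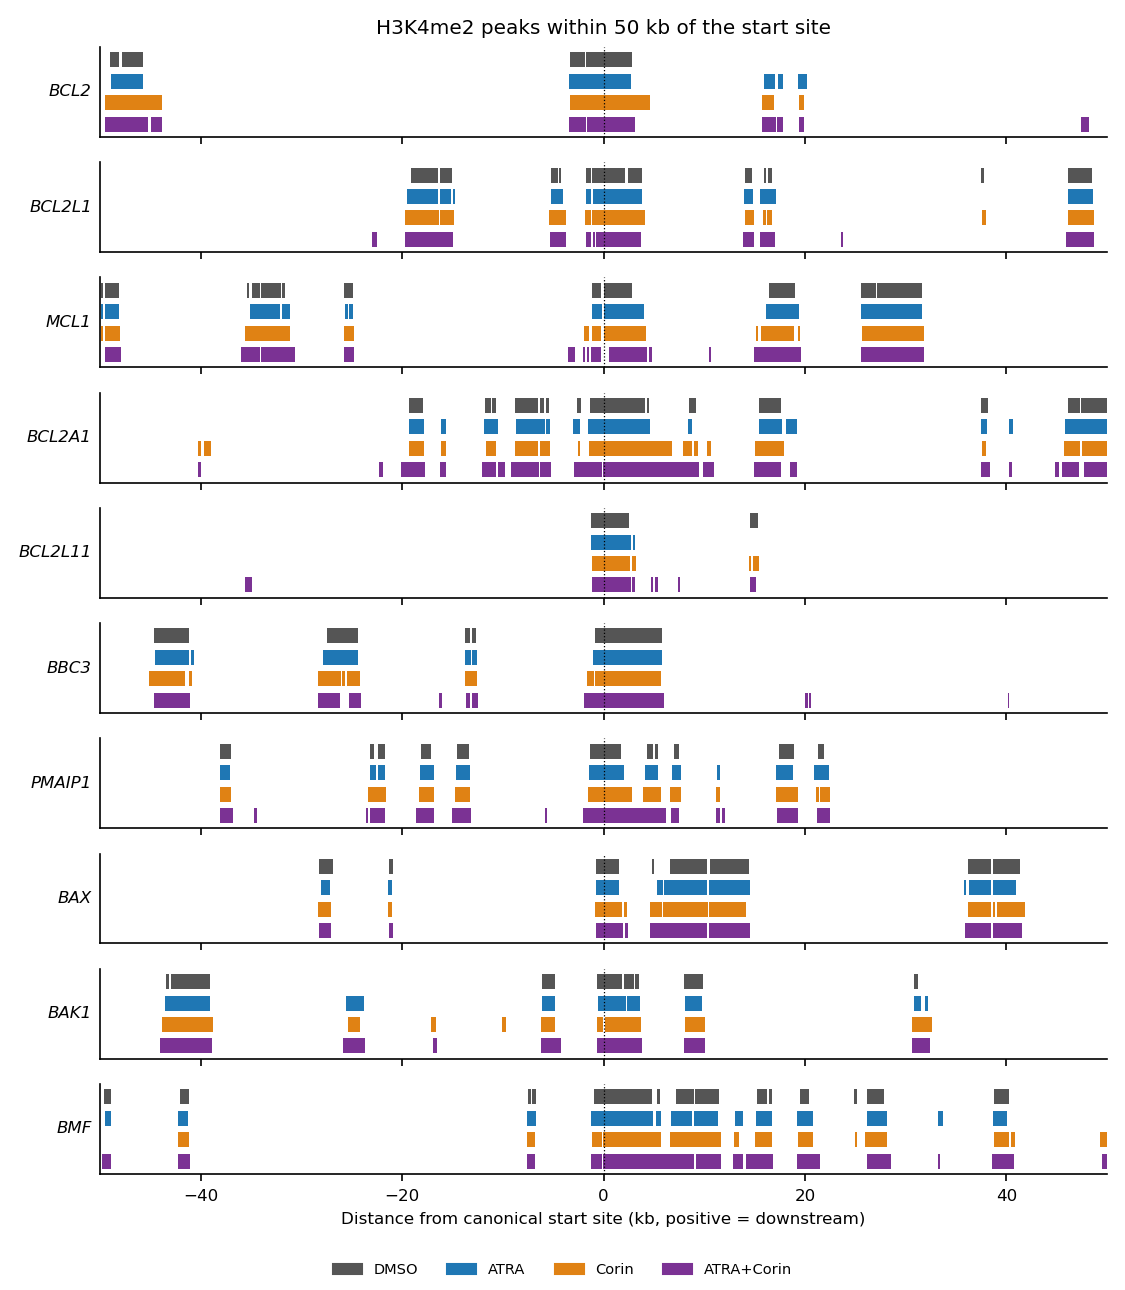
Peaks of the 4 lists within 50 kb of the canonical start site (horizontal axis, kb, positive downstream) of each gene; each bar is 1 peak. BBC3 and BCL2L11 show 4 regions each that are drawn in the combination track alone, while the window of BAX differs by 1 region over the 4 lists.

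Start sites of the family were marked more often than those of other genes. The canonical start site lay under a peak in 9 of 10 genes with DMSO, where 47.3% of all protein-coding genes had one, in 9 with ATRA (48.1%), in 8 with Corin (38.0%) and in 9 with the combination (38.0%). MCL1 was the gene without a peak on its start site in every list; its nearest peak lay 17, 39, 35 and 238 bases away with DMSO, ATRA, Corin and the combination. Over all genes the share of marked start sites was lower in the 2 lists with Corin. In the family 1 gene, BAK1, went from marked to unmarked with Corin and 0 with the combination. The lower share over all genes was seen at the start base itself. At 500 bases upstream 52.8%, 54.6%, 54.3% and 55.1% of all genes lay under a peak with DMSO, ATRA, Corin and the combination. At 500 bases downstream 56.5%, 57.0%, 56.4% and 57.1% did.

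Peaks over the start site reached farther into the gene after treatment. With the combination the downstream end of that peak lay farther out than with DMSO in 9 of 9 genes that had one in both lists, and in 79.7% of all such genes. The median change was 1588 bp in the family and 314.5 bp over all genes. With Corin the median change was 1026.5 bp over 8 genes, beside 241 bp, and with ATRA 131 bp over 9 genes, beside 41 bp. An end at least 1 kb farther out was seen with ATRA in 1 of 9 genes (4.63% of all genes), with Corin in 4 of 8 (12.8%) and with the combination in 5 of 9 (19.8%). The family's share thus lay above the background in all 3 contrasts, for ATRA through 1 gene, BCL2L1. In all 5 such genes with the combination the newly reached stretch already held a separate DMSO peak, as it did in 54.1% of the 1400 genes genome-wide with such a shift, so part of each of these 5 shifts ran over existing peaks. With Corin this held for 2 of 4 genes (66.0% genome-wide) and with ATRA for 1 of 1 (89.0%).

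The largest shifts were those of BCL2A1, PMAIP1 and BMF. For BCL2A1 the peak ended 4135 bp downstream of the start site with DMSO, 4599 bp with ATRA, 6792 bp with Corin and 9460 bp with both drugs. For PMAIP1 these ends were 1684, 2050, 2854 and 6167 bp, and for BMF 4775, 4872, 5658 and 8974 bp. In these 3 genes the order of the lists was the same. The stretch added by the combination held 2 separate DMSO peaks in each of them, which already covered 17.0% of it at BCL2A1, 20.6% at PMAIP1 and 50.4% at BMF. BAK1 went from 1833 bp with DMSO and 2250 bp with ATRA to 3809 bp with the combination, and 67.0% of the added stretch already lay under DMSO peaks. BCL2L1 ended at 2115 bp with DMSO and at 3774, 4096 and 3703 bp with the drugs, and there a separate DMSO peak from 2468 bp on already covered 77.8% of the stretch added by the combination. BCL2 ended at 2834, 2684, 4578 and 3145 bp, so its longest peak was that of Corin. BCL2L11 (2546 to 2687 bp), BBC3 (5670 to 5986 bp) and BAX (1511 to 1911 bp) moved least.

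**Figure D5:**
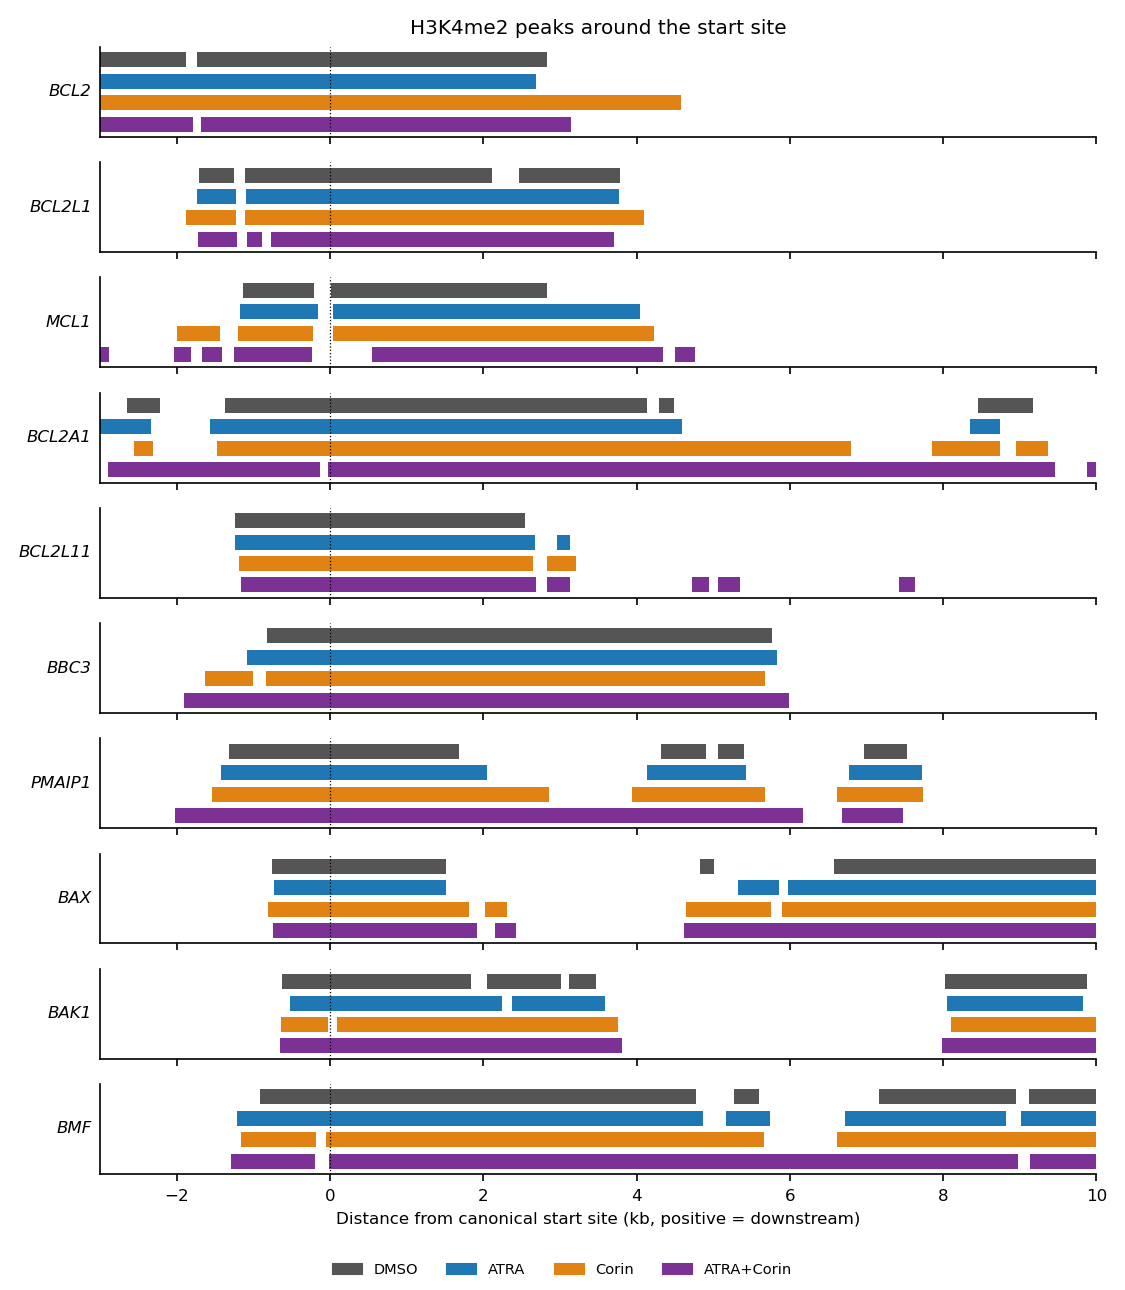
Peaks of the 4 lists from 3 kb upstream to 10 kb downstream of the canonical start site (dotted line; horizontal axis in kb). The combination peak of BCL2A1, PMAIP1 and BMF runs to 9460, 6167 and 8974 bp, and gaps at the start site are seen for MCL1 in all lists and for BAK1 with Corin.

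The extent can also be read at fixed points. At 1 kb downstream of the start site all 10 genes lay under a peak in each of the 4 lists. At 3 kb downstream 5 of the 10 genes did with DMSO, 7 with ATRA, 8 with Corin and 9 with the combination, where 9.65%, 10.9%, 17.1% and 19.8% of all genes did. At 4 kb the counts were 3, 4, 7 and 5, so there Corin stood above the combination, beside 6.63%, 7.70%, 10.5% and 12.8% of all genes. At 5 kb downstream they were 2, 2, 5 and 5, beside 5.63%, 6.41%, 8.04% and 10.2%. At 7.5 kb the lists barely differed, with 3, 3, 3 and 4 genes, beside 5.03%, 5.69%, 6.84% and 8.01%.

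Within each list the peaks over the start sites of BBC3 and BCL2 were among the strongest. The fold over background and the −log10 p and q are the authors' values for a peak, and were used only inside a list. By −log10 q the start-site peak of BBC3 stood above at least 99.2% of the peaks of each list and that of BCL2 above at least 98.3%. Those of PMAIP1 and BCL2A1 stood lower, with lowest percentiles of 88.5 and 86.4. Summit fragments at the BCL2 start-site peak were 335 with DMSO, 487 with ATRA, 206 with Corin and 376 with both drugs, and at that of BCL2A1 138, 223, 163 and 222; depth and background differ between the lists, so these are not compared.

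Set against the single drugs, the combination list held regions at all 10 genes that the ATRA list lacked. It gained 29 regions and lost 1 against ATRA. Gains were seen at 10 of 10 genes, where 63.2% of all genes had one, and the loss at 1 gene, MCL1, where 21.6% had one. Against Corin it gained 28 regions at 8 genes (59.0% of all genes) and lost 7 at 6 genes (28.7%). BAX and BAK1 were the 2 genes without a gain against Corin. The losses against Corin thus touched a larger share of the family than of all genes, and 0 of the 7 lost regions reached a −log10 q of 5 under Corin. At equal H3K4me2 depth the combination gained 24 and lost 3 against ATRA, and gained 25 and lost 5 against Corin; at equal input depth these counts were 20 and 5, and 25 and 3.

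By role, the guardians gained 21 regions with the combination (7 at BCL2, 2 at BCL2L1, 4 at MCL1 and 8 at BCL2A1), the BH3-only genes 16 (5 at BCL2L11, 4 at BBC3, 4 at PMAIP1 and 3 at BMF) and the effectors 3 (1 at BAX and 2 at BAK1). Gains were therefore found on both the protective and the death-promoting side. With Corin these sums were 9, 4 and 4, and with ATRA 8, 4 and 1. The roles hold 4, 4 and 2 genes. The window of BCL2 is 246424 bases long and that of BCL2L1 108417, where the other genes have 100001. The sums are therefore not compared between roles.

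The rest of the pathway was read from 2 lists. Of 11 other BCL2 family genes, 8 had a region gained with the combination and 3 a region lost, beside the 67.8% and 20.3% of all genes given above. With ATRA 7 had a gain and with Corin 6, beside 42.0% and 54.0% of all genes. Of 8 genes of the apoptosome, which cytochrome c and APAF1 form, with its caspases and their regulators, 7 had a gain with the combination and 0 a loss, with 3 for ATRA and 4 for Corin. Their start sites lay under a peak in 7 of 8 genes with DMSO and with ATRA, and in 3 of 8 with Corin and with the combination. Among the 11 other family genes the numbers were 6, 6, 5 and 5. Of all protein-coding genes 47.3%, 48.1%, 38.0% and 38.0% had a peak on the start site in the same order of lists. The genes with the most gained and lost regions were BCL2L13, a mitochondrial family member, with 12 regions with DMSO and 19 with the combination, BCL2L15 with 7 and 13, XIAP, an inhibitor of caspases, with 4 and 10, APAF1 with 5 and 10, and CYCS, which encodes cytochrome c, with 3 and 8. Corin alone already brought BCL2L15 to 14.

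BCL2A1 had the widest range of covered share, and the genes over 200 kb away whose 4 covered shares were closest to its own were the neighbours ENSG00000267385 and LRG1, at a Euclidean distance of 0.776 percentage points, and PLIN5 at 0.813. These 3 share 1 locus and hence most of a window. LRG1 had covered shares of 18.5% with DMSO, 21.9% with ATRA, 25.2% with Corin and 31.5% with both drugs, over the same 4 lists.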

How the data were processed

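ChIP-seq of H3K4me2 with paired-end reads was done on U-937 cells under 4 treatments (2 antibody libraries and 1 input each), and libraries were grouped by their titles. Per the submitters' processing notes the tools were Trimmomatic, Bowtie2, Picard and MACS2 on hg38, whose versions and settings are not given in the sources used here. The authors deposited 1 peak list per treatment, named as an optimal set of H3K4me2 against input that is reproducible by overlap, with no values per replicate. Of each peak the authors deposited a score, the fold over background as a ratio, the −log10 p, the −log10 q and the summit's offset. No header names the build inside the lists; measured on hg38, 0 chromosomes had a peak past their end. They are given counted from 1.

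From these files, peaks of the 23 chromosomes used (1 to 22 and X) were merged into regions where they overlapped or touched, and counted in gene windows of GENCODE release 44 with Python 3.11.15, numpy 2.4.6, pandas 2.3.3 and scipy 1.17.1; figures were drawn with matplotlib 3.10.9. The same counts over all protein-coding genes gave the background. The fold (pseudocount 1) and −log10 p of a peak were solved for whole fragments and a background within 0.001. Of 407 member peaks 0 were left unsolved. Depth was the lowest background among 2000 sampled peaks of a list, relative to that of DMSO. The scripts were tested on simulated data. Intervals are 95% exact Poisson intervals and cover counting error only. Promoters came from a RefSeq table in which 9 members were matched, 8 of them with the canonical start.

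The members and gene lists were chosen with earlier results of these data known. Named were all 10 members, at most 5 pathway genes with the most gained and lost regions in the combination, and, in full, each member's gained and lost region of highest −log10 q in that contrast; other member regions were named after their values were seen. Alternatives were −log10 q minimums, lists of equal length, other merging, overlap and window rules, a start site tolerance and, added after the data were seen, equal H3K4me2 depth, equal input depth and regions nearest to the member's own start site. Single-replicate and paired fits were not run, since the lists hold pooled values. The result of 1 cell type marker list is not reported here.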

Additional observations from a re-analysis of the deposited data

How the results depend on the processing

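No paired analysis was possible because the lists pool the replicates, and for the same reason no replicate could be left out. Counts are of gained and lost regions in the 10 windows, for ATRA, Corin and the combination against DMSO and then for the combination against ATRA and against Corin; the values not repeated here stayed within 1.5 times of those reported. With −log10 q minimums of 5 on both sides, ATRA lost 1, Corin gained 9 and lost 4, the combination gained 24 and lost 1, gained 17 and lost 7 against ATRA, and lost 1 against Corin. With that minimum only on the side with the peak, ATRA lost 1, Corin gained 6, the combination gained 21 and lost 1, gained 15 against ATRA, and gained 11 and lost 0 against Corin. With lists of equal length, Corin lost 5, the combination gained 25 and lost 5, and gained 17 and lost 6 against ATRA. With peaks within 1 kb merged, Corin gained 10, the combination gained 26 and lost 1, gained 19 and lost 0 against ATRA, and lost 3 against Corin. With single peaks ATRA lost 7 and the combination lost 3 against ATRA.

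A reciprocal overlap of 50% between single peaks moved the counts most. ATRA then gained 28 and lost 32, Corin gained 49 and lost 41, the combination gained 62 and lost 43, gained 47 and lost 24 against ATRA, and gained 45 and lost 34 against Corin; by its construction this rule counts a peak that lengthened or joined others as gained and lost. Within 10 kb of the start site ATRA gained 1 and lost 0, Corin gained 5 and lost 0, the combination gained 11 and lost 0, gained 10 and lost 0 against ATRA, and gained 7 and lost 1 against Corin. Within 100 kb ATRA gained 20 and lost 8, Corin gained 26 and lost 4, the combination gained 62 and lost 5, and gained 46 against ATRA. At equal input depth, chosen after the data were seen, Corin gained 11 and lost 6, and the combination lost 5 against ATRA and 3 against Corin; at equal H3K4me2 depth, also chosen later, Corin lost 4 and the combination lost 3 against ATRA. With regions nearest to the member's own start site, also chosen later, Corin lost 0 and the combination lost 0 against ATRA.

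The combination had more gained than lost regions at 10 genes as reported, and at 5 to 10 under the alternatives. Among these were 9 genes with peaks within 1 kb merged (1 at 0) and 7 with lists of equal length (3 at 0). There were 5 genes within 10 kb (5 at 0) and 6 with reciprocal overlap (3 below 0). Gained minus lost regions changed sign for a few genes. For PMAIP1 against ATRA the value was -1 with −log10 q minimums of 5 on both sides, with lists of equal length and at equal input depth, and against Corin -1 with lists of equal length. For BAK1 against Corin it was 1 with −log10 q minimums of 5 on both sides and at equal input depth. With reciprocal overlap it was -1 for BMF and BCL2A1 with ATRA, -1 for MCL1 and BMF with Corin, -1 for BMF and BAK1 and -2 for BCL2L1 with the combination, and -1 for BAX and BAK1 against ATRA. Apart from the rules' own construction the cause was not tested. The count of start sites under a peak and the covered share stayed close to the values reported under the alternatives run. Weak peaks limit the counts: their summits hold as few as 14 fragments.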
